A study of Homo sapiens with 60 samples.

Results

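The genes described here are 10 genes grouped as feedback genes of the ERK pathway. They were measured in HT29 cells, a human colorectal adenocarcinoma line, after treatment with herbal extracts. They are the phosphatase genes DUSP1, DUSP4, DUSP5, DUSP6 and DUSP10, the Sprouty genes SPRY2 and SPRY4, the SPRED genes SPRED1 and SPRED2, and PHLDA1. Of these, DUSP10 acts on JNK and p38 rather than ERK, and PHLDA1 is not a phosphatase, as described below. The 10 genes were chosen by name and role, not by a threshold on their values, from a table of 60675 gene identifiers. Earlier results of these data were known when they were chosen. All 10 were among the 16022 genes with enough reads to be tested.

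RNA was sequenced after 24 h. Coptidis Rhizoma was given at 12.8, 64 and 320 µg/mL with 2 libraries a dose, and Bupleuri Radix at 12.4, 62 and 310 µg/mL with 3 libraries a dose. Banhasasim-tang (1 library a dose), Yijung-tang and Zizyphi Fructus (2 each), and Citri Unshius Pericarpium, Cimicifugae Rhizoma and Aconiti Lateralis Radix Preparata (3 each) were given at 20, 100 and 500 µg/mL. Each is an ethanol extract; Banhasasim-tang and Yijung-tang are multi-herb formulas. The vehicle group held 3 libraries of cells given DMSO, at 0.1% per the sample labels and at 2% per the series design. The design states that an extract whose IC20 lay under 500 µg/mL was used at that concentration instead, so the high doses of Coptidis Rhizoma and Bupleuri Radix are IC20 doses.

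Library totals ran between 18083414 and 36715081 counts. The labels do not say that replicates were separate cultures, so p-values measure the spread between libraries, which may be technical. The titles put all 60 libraries in one batch, named BatchD. The sample codes begin with one prefix for the 3 vehicle libraries and with another for each pair of extracts; libraries that share a prefix are called a library set here, although no label says what the prefix stands for. If it marks a difference in handling, what that and the extract each contribute to a difference from vehicle cannot be told apart. High and low doses of an extract share a prefix. HT29 is 1 line, and all 11 colon epithelial markers examined were detected, with summed levels of 8870 to 13955 CPM over the 60 libraries. Of 14 markers of other cell types, 4 were abundant enough to test. In bulk RNA, fewer cells of a kind and less RNA per cell cannot be told apart. The library of Zizyphi Fructus medium dose replicate 3 stood apart: mitochondrial genes took 41.8% of its counts, against 3.66% to 15.5% in the 59 others. Markers of other cell types summed to 45.9 CPM in it, against 7.46 to 13.1 CPM in the 59 others; CD68, a macrophage marker, made up 38.3 CPM (at most 9.51 CPM in the others), 6 of the 14 genes lay above all other libraries, 3 of them on 1 or 2 counts, and 6 were at 0, among them PTPRC, CD3E and VWF. Among the colon epithelial markers CDH1 and CEACAM5 also lay above all 59 others in this library, and KRT8 and LGALS4 below all of them. Results that rest on this library are given with and without it, and the part of these features in them was not tested.

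ERK, the last kinase of the RAS, RAF, MEK and ERK chain, carries signals from growth factor receptors to the nucleus, and in HT29 the chain is driven by an activating BRAF mutation. Active ERK induces its own inhibitors: dual-specificity phosphatases remove the activating phosphates from MAP kinases, while Sprouty and SPRED proteins act nearer the membrane, between the receptor, RAS and RAF. Transcripts of several of these genes are therefore widely used as a readout of ERK output, and in colon epithelium the pathway is best known downstream of the EGF receptor.

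The promoters of 4 members are shown because they cover the range of behaviours found below: DUSP1 and PHLDA1 responded to both of the most active extracts, DUSP6 to one of them, and SPRY4 passed the test in no comparison of high with low dose. Each run is the 250 bases before the gene's start in RefSeq (GRCh38.p14), written 5′ to 3′ on the strand of the gene. The RefSeq start is not always the start in GENCODE, the source of the gene coordinates given below. Only the DUSP1 window adjoins the GENCODE start. The DUSP6, PHLDA1 and SPRY4 windows lie inside the GENCODE intervals of these genes. Capitals mark TGACG (on either strand), TGACGTCA and TATAAA.
DUSP1 (chr5:172771196-172771445, minus strand): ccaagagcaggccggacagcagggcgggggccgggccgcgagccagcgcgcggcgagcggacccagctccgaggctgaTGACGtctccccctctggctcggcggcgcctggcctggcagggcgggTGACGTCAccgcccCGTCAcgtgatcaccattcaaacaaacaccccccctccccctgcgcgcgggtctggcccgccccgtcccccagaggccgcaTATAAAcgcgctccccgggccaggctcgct
DUSP6 (chr12:89352502-89352751, minus strand): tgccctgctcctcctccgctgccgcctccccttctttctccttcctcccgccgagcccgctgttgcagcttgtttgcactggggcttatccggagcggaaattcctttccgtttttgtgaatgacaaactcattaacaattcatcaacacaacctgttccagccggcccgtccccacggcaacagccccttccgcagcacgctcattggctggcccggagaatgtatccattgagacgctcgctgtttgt
PHLDA1 (chr12:76031777-76032026, minus strand): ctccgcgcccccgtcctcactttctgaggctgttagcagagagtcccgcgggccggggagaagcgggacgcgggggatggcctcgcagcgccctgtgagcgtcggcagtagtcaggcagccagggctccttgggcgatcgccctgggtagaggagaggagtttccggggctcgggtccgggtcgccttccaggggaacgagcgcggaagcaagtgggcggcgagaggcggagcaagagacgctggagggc
SPRY4 (chr5:142324248-142324497, minus strand): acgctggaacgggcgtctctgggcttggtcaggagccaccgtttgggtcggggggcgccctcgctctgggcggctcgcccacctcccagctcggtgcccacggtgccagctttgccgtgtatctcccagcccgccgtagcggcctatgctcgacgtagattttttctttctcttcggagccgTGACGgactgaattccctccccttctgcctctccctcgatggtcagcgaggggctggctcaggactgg
RefSeq entries were matched for 8 of the 10 members; DUSP4 and DUSP5 are named only.

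Motifs were searched on both strands in 35116 promoters of the same length. DUSP1 held 4 matches to TGACG, the core of the cAMP response element; 2 of them lie within the single full element TGACGTCA, 125 bases before the start. TGACG occurred in 21.22% of all promoters and TGACGTCA in 1.65%. DUSP1 also held TATAAA 30 bases before the start, found in 10.72% of promoters. SPRY4 held 1 TGACG, 68 bases before the start. DUSP6 and PHLDA1 held none of these letters in this window. For both genes this absence does not cover the bases before the GENCODE start, so it does not show a promoter difference from DUSP1. Neither the AP-1 letters TGANTCA, found in 6.57% of promoters, nor the ETS letters CCGGAAG, found in 8.52%, occurred in the 4 windows. These matches describe the letters and say nothing about binding.

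The first question was whether the feedback genes changed between the low and the high dose of each extract. Levels are given as CPM, the counts of a gene relative to the library total, scaled between libraries by the TMM method, and a gene was called changed where its adjusted p lay below 0.05 in edgeR's quasi-likelihood test with Benjamini-Hochberg adjustment over all 16022 genes. With Coptidis Rhizoma 7 members rose and 1 fell, with Bupleuri Radix 4 rose, and with the other 6 extracts none passed. DUSP5 changed most in both. The whole transcriptome moved with Coptidis Rhizoma: 27.8% of all tested genes were called higher and 28.4% lower, 9001 genes in all. With Bupleuri Radix 6.34% were called higher and 6.59% lower. The median log2 change of the 10 members was 0.68 with Coptidis Rhizoma and 0.06 with Bupleuri Radix, against -0.02 and -0.01 over all tested genes. Because the choice of members was not blind to earlier results, comparisons with all genes are descriptions only.

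**Figure D1:**
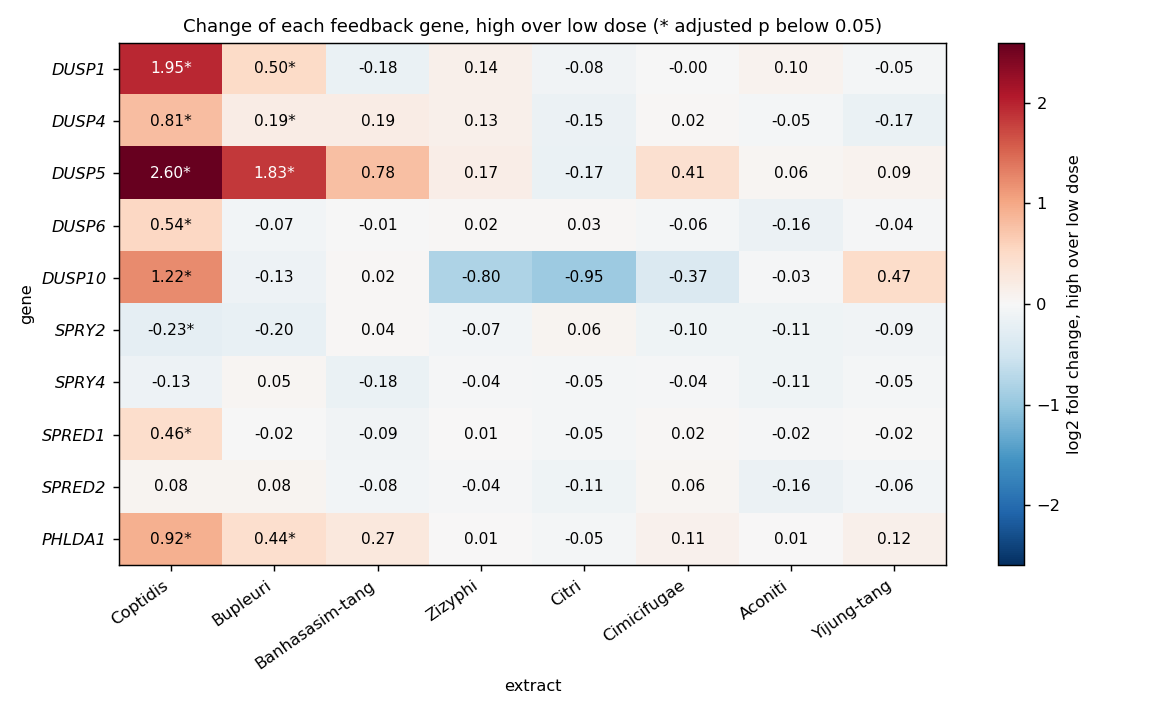
Log2 fold change at high over low dose of each of the 10 feedback genes (rows) with each of the 8 extracts (columns, names shortened); red is higher and blue lower at high dose, and an asterisk marks an adjusted p below 0.05 in edgeR. Values range up to 2.60 for DUSP5 with Coptidis Rhizoma, and 12 of the 80 cells carry an asterisk, all in the 2 leftmost columns.

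DUSP5 encodes a nuclear phosphatase that is specific for ERK and holds it in the nucleus; its gene lies at chr10:110497838-110511544 (GRCh38, GENCODE 29). With Coptidis Rhizoma its level was 25.5 and 23.0 CPM at high dose, against 3.65 and 4.34 CPM at low dose. Both high-dose libraries lay far above both low-dose ones, and DUSP5 rose by 2.60 ± 0.15 on the log2 scale (standard error; 6.05-fold, edgeR adjusted p = 1.9e-18). With Bupleuri Radix the level was 15.5, 12.9 and 13.7 CPM at high dose, against 3.81, 4.04 and 3.97 CPM at low dose. The groups did not overlap here either, and the rise was 1.83 ± 0.12 (3.56-fold, edgeR adjusted p = 8.6e-15). Both calls held in every alternative analysis, 15 for Coptidis Rhizoma and 16 for Bupleuri Radix.

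The rise of DUSP5 appeared between the medium and the high dose. The medium dose gave 4.52 and 4.44 CPM with Coptidis Rhizoma, and 3.89, 4.28 and 3.43 CPM with Bupleuri Radix. The vehicle libraries had 4.49, 4.43 and 3.82 CPM. All 5 medium-dose libraries thus lay near the vehicle range, and every high-dose library of these extracts lay above it. The third highest group was Banhasasim-tang at high dose, whose 1 library held 6.21 CPM (158 counts; 95% Wilson interval 5.32 to 7.26, counting error only), against 3.62 CPM in its low-dose library. That difference, 0.78 ± 0.23 on the log2 scale, had an edgeR adjusted p of 0.074, with its spread taken from the other groups; without the Zizyphi Fructus library that stood apart it was 0.77 with an adjusted p of 0.018, past the threshold. Without that library 1.99% of all genes were called higher between these doses of Banhasasim-tang. The next highest group, Cimicifugae Rhizoma at high dose, averaged 4.99 ± 0.34 CPM (SD, n = 3).

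DUSP1 (chr5:172768090-172771195) encodes an immediate-early nuclear phosphatase with activity toward ERK, JNK and p38. With Coptidis Rhizoma it had 12.8 and 12.4 CPM at high dose, against 3.47 and 3.05 CPM at low dose. The groups were well apart, and DUSP1 rose by 1.95 ± 0.16 (3.87-fold, edgeR adjusted p = 2.0e-13). With Bupleuri Radix it had 6.27, 5.16 and 5.56 CPM at high dose, against 3.89, 4.32 and 3.78 CPM at low dose. The groups did not overlap, and the rise was 0.50 ± 0.14 (1.42-fold, edgeR adjusted p = 0.0093). The Bupleuri Radix call was lost in 3 of 16 alternatives, among them leaving out high-dose replicate 1 or low-dose replicate 3, with adjusted p of up to 0.12. In Banhasasim-tang DUSP1 had 3.74 CPM at high dose and 4.23 CPM at low dose, a difference of -0.18 ± 0.25 that was not called.

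DUSP4, a nuclear phosphatase toward ERK and JNK, lies at chr8:29333064-29350668. With Coptidis Rhizoma it had 54.4 and 51.6 CPM at high dose, against 29.6 and 30.9 CPM at low dose. Here too no library of one dose reached those of the other, and DUSP4 rose by 0.81 ± 0.07 (1.75-fold, edgeR adjusted p = 2.3e-13). With Bupleuri Radix it had 33.4, 34.2 and 31.1 CPM at high dose, against 27.6, 28.9 and 30.1 CPM at low dose. These groups did not overlap but the gap was narrow: the rise of 0.19 ± 0.06 (edgeR adjusted p = 0.021) was lost in 7 of 16 alternatives, with adjusted p of up to 0.42, including leaving out either of replicates 1 and 2 of either dose.

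PHLDA1 (chr12:76025447-76033932) is not a phosphatase. It encodes a pleckstrin homology-like domain protein whose transcript is part of published ERK output signatures. With Coptidis Rhizoma it had 241 and 244 CPM at high dose, against 125 and 132 CPM at low dose. That is a rise of 0.92 ± 0.09 (1.89-fold, edgeR adjusted p = 3.0e-11), with the doses well apart. With Bupleuri Radix it had 173, 165 and 167 CPM at high dose, against 121, 124 and 127 CPM at low dose. The doses again did not overlap, and the rise was 0.44 ± 0.08 (1.36-fold, edgeR adjusted p = 2.9e-05). Both calls held in all alternatives. The Banhasasim-tang high-dose library held 167 CPM and its low-dose library 138 CPM, a difference of 0.27 ± 0.13. Its edgeR adjusted p was 0.53, and 0.011, past the threshold, without the Zizyphi Fructus library that stood apart. Without that library 1.99% of all genes were called higher there.

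**Figure D2:**
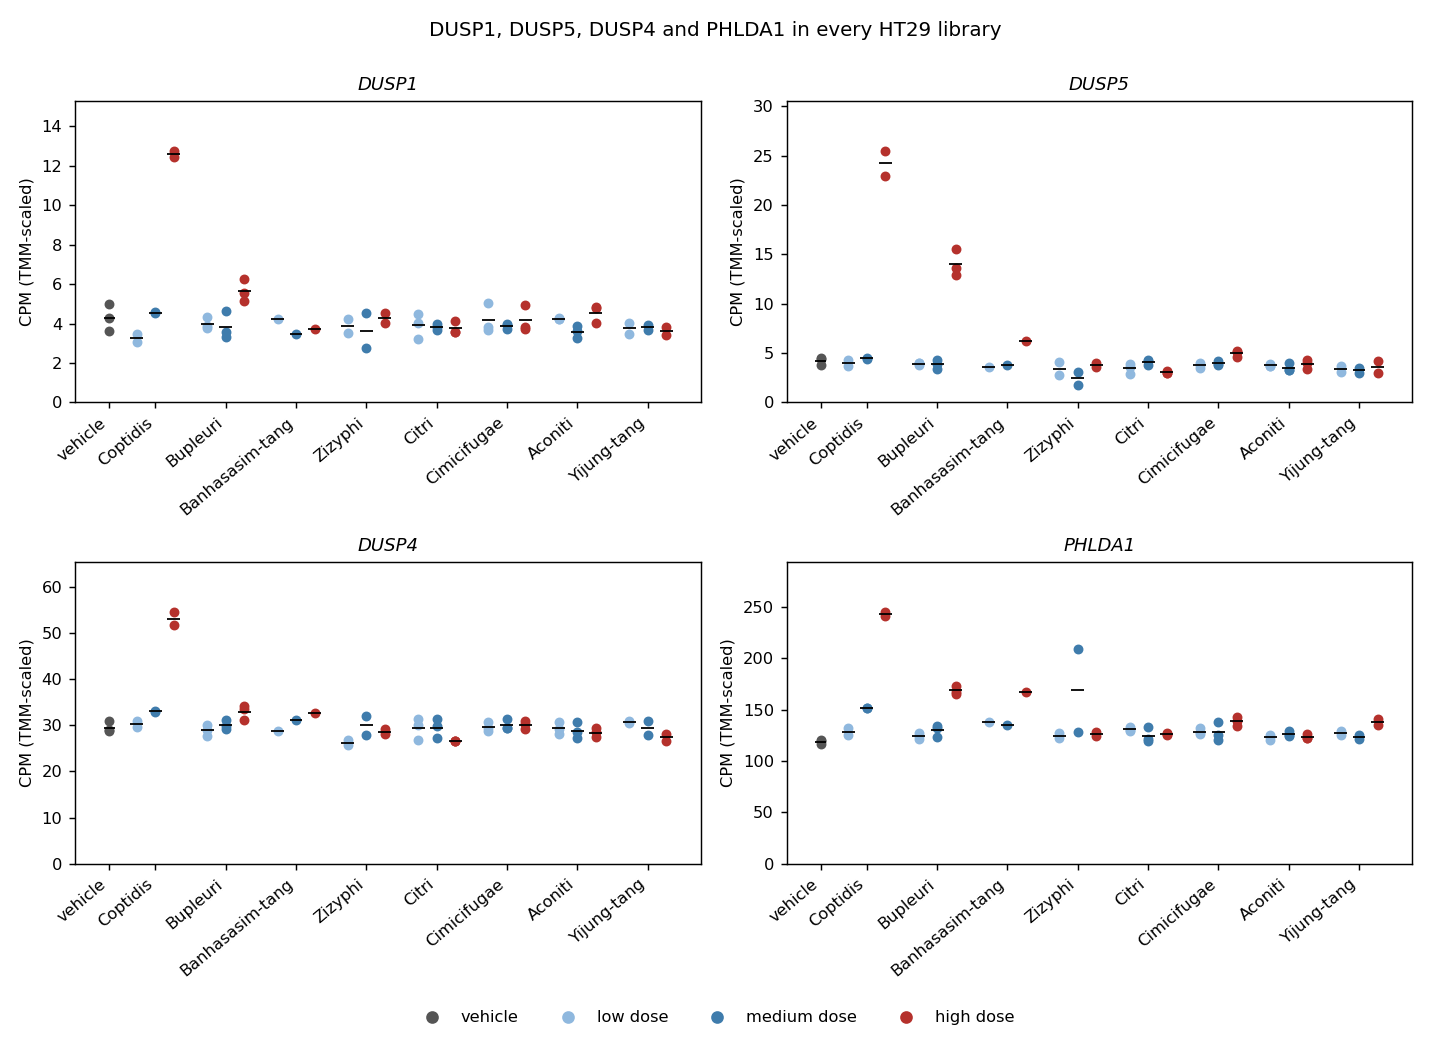
TMM-scaled CPM (vertical axes, from 0) of DUSP1, DUSP5, DUSP4 and PHLDA1 in every library (points), for vehicle and then for the low, medium and high dose of each extract; horizontal lines are group means. The high dose of Coptidis Rhizoma stands highest in all 4 panels, DUSP5 is also raised at the high dose of Bupleuri Radix, and the lone high PHLDA1 point of Zizyphi Fructus, at 209 CPM, is its medium-dose replicate 3.

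DUSP6 and SPRED1 changed with Coptidis Rhizoma and not detectably with Bupleuri Radix. DUSP6 (chr12:89347232-89353271), the cytoplasmic phosphatase specific for ERK and a common marker of its activity, had 84.2 and 81.4 CPM at the high dose of Coptidis Rhizoma, against 55.3 and 58.3 CPM at low dose. The groups did not overlap, and the rise was 0.54 ± 0.06 (edgeR adjusted p = 1.9e-09). With Bupleuri Radix the change was -0.07 ± 0.05 (95% interval -0.18 to 0.03). SPRED1 (chr15:38252326-38357249), an inhibitor that acts on RAS through neurofibromin, had 213 and 211 CPM at the high dose of Coptidis Rhizoma, against 155 and 154 CPM at low dose. Every high-dose library lay above every low-dose one, and the rise was 0.46 ± 0.07 (edgeR adjusted p = 1.3e-06). With Bupleuri Radix it was -0.02 ± 0.06 (95% interval -0.14 to 0.10). The Coptidis Rhizoma calls of both genes held in all 15 alternatives.

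DUSP10 (chr1:221701424-221742176), a phosphatase for JNK and p38 rather than ERK, was counted sparsely, with 5 to 27 counts a library. At the high dose of Coptidis Rhizoma it had 14 and 18 counts (0.525 and 0.750 CPM), against 5 and 8 counts (0.222 and 0.313 CPM) at low dose. The doses did not overlap, and the rise was 1.22 ± 0.43 (edgeR adjusted p = 0.014). The high-dose level was close to that of vehicle, which had 0.445, 0.597 and 0.546 CPM, and the difference from vehicle, 0.24 ± 0.33, was not called. The call against low dose was lost in 3 of 15 alternatives, including leaving out low-dose replicate 2 or high-dose replicate 3, with adjusted p of up to 0.14.

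Neither Sprouty gene was called higher at the high dose of Coptidis Rhizoma. SPRY2 (chr13:80335976-80340951), an inhibitor between receptor and RAF, had 19.5 and 18.8 CPM at the high dose of Coptidis Rhizoma, against 22.4 and 22.6 CPM at low dose. Both high-dose libraries lay below both low-dose ones, and SPRY2 fell by 0.23 ± 0.10 on the log2 scale (edgeR adjusted p = 0.042). This small fall was lost in 6 of 15 alternatives, including leaving out any 1 of the 4 libraries, with adjusted p of up to 0.67. With Bupleuri Radix the change was -0.20 ± 0.08 (edgeR adjusted p = 0.098, and 0.016 without the Zizyphi Fructus library that stood apart). Without that library 10.5% of all genes were called lower with Bupleuri Radix. SPRY4 (chr5:142310427-142326455), its relative with a similar role, had 57.2 and 54.4 CPM at the high dose of Coptidis Rhizoma, against 58.8 and 63.0 CPM at low dose, a difference of -0.13 ± 0.16 that was not called. SPRED2 (chr2:65310851-65432637), a close relative of SPRED1, had 111 and 108 CPM at high dose, against 99.2 and 108 CPM at low dose. The SPRY4 doses lay close without overlap, the SPRED2 doses overlapped, and the SPRED2 difference of 0.08 ± 0.14 was not called.

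**Figure D3:**
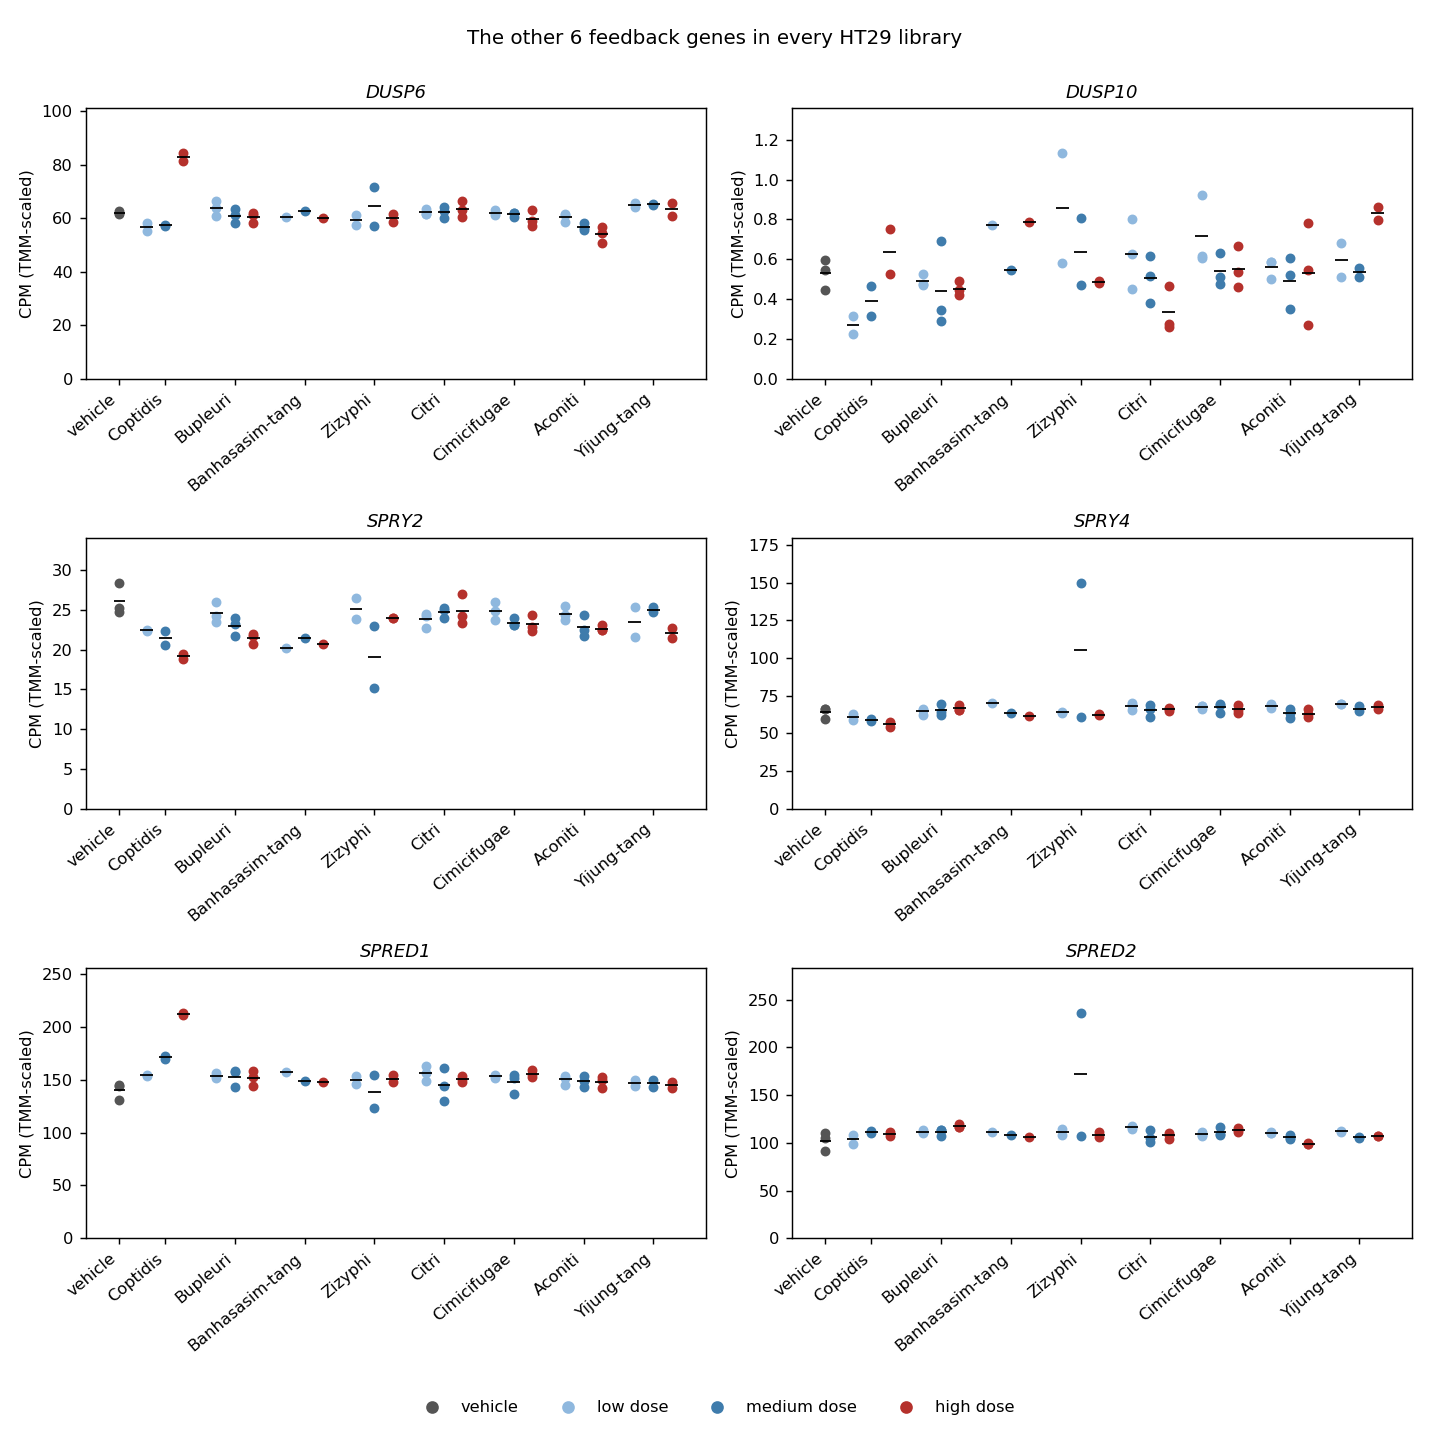
TMM-scaled CPM (vertical axes, from 0) of DUSP6, DUSP10, SPRY2, SPRY4, SPRED1 and SPRED2 in every library (points), for vehicle and then for the low, medium and high dose of each extract, with group means as lines. DUSP6 and SPRED1 are highest at the high dose of Coptidis Rhizoma; the points of SPRY4 at 150 CPM and of SPRED2 at 236 CPM are the Zizyphi Fructus library that stood apart.

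In the 6 other extracts no member was called by edgeR between high and low dose, and DESeq2 called none either. The share of all genes called there was 0% with Zizyphi Fructus, 0.144% with Citri Unshius Pericarpium, 0.874% with Cimicifugae Rhizoma, 2.71% with Aconiti Lateralis Radix Preparata, 0.206% with Yijung-tang and 1.73% with Banhasasim-tang. At an unadjusted p below 0.05, a looser threshold than that of these shares, edgeR gave 1, 2, 1, 1, 1 and 2 of the 10 members in the same order. The share of all genes at the unadjusted threshold is not given, here or below, so such counts have no background beside them. DUSP5 with Cimicifugae Rhizoma was among them, at 5.26, 4.61 and 5.10 CPM at high dose, against 3.83, 3.47 and 3.95 CPM at low dose. These libraries did not overlap, yet the difference of 0.41 ± 0.14 had an edgeR adjusted p of 0.22. Without the Zizyphi Fructus library that stood apart, 2 members were called lower with Aconiti Lateralis Radix Preparata, DUSP6 (-0.16, adjusted p = 0.010) and SPRED2 (-0.16, adjusted p = 0.015), where 4.57% of all genes were then called lower.

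Medium dose was set against low dose to see where along the doses the change began. Of the 80 tests edgeR called 5, all in Zizyphi Fructus, where 18.7% of all tested genes were called higher and 12.8% lower: DUSP4, SPRY4, SPRED2 and PHLDA1 higher and SPRY2 lower. All 5 calls were lost without the medium-dose replicate 3 library, in which SPRY4 had 150 CPM beside 60.6 CPM in replicate 2, and SPRED2 236 CPM beside 108 CPM. SPRY4 then differed by -0.07 and SPRED2 by -0.05. In that library the markers of other cell types stood at 45.9 CPM in sum, 38.3 CPM of it from CD68, beside 10.4 CPM in replicate 2. The part of these markers in the calls was not tested. In Coptidis Rhizoma, where 1.35% of genes were called, no member was; PHLDA1 had 151 CPM in both medium-dose libraries, against 125 and 132 CPM at low dose. That difference of 0.24 ± 0.09 had an edgeR adjusted p of 0.33, and of 7.4e-04 without the Zizyphi Fructus library. With that library left out PHLDA1 was the 1 member called at medium against low dose, where 2.49% of genes were then called higher in Coptidis Rhizoma. Elsewhere 0.00624% of genes were called with Cimicifugae Rhizoma, 0.0250% with Banhasasim-tang and 0% with the 4 other extracts; no member of these 6 extracts had an unadjusted p below 0.05, and DESeq2 called none.

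Against vehicle, the high doses gave a picture close to that within sets, with the limit stated above. With Coptidis Rhizoma 6 members were called higher, where 30.9% of all genes were, and 1 lower, where 32.0% were. The log2 differences were 2.51 ± 0.13 for DUSP5, 1.57 ± 0.14 for DUSP1, 1.03 ± 0.08 for PHLDA1, 0.85 ± 0.06 for DUSP4, 0.60 ± 0.07 for SPRED1 and 0.42 ± 0.06 for DUSP6. SPRY2 was the member called lower, with 19.5 and 18.8 CPM at high dose and 28.4, 25.2 and 24.8 CPM in vehicle, a fall of 0.44 ± 0.09 (edgeR adjusted p = 2.9e-05). Those 7 calls held in all 14 alternatives run for this comparison.

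With Bupleuri Radix 4 members were higher than vehicle, where 14.3% of genes were, and 1 was lower, where 12.7% were. DUSP5 differed by 1.72 ± 0.12, PHLDA1 by 0.50 ± 0.08, DUSP1 by 0.41 ± 0.13 and DUSP4 by 0.16 ± 0.06, and SPRY2 fell by 0.28 ± 0.08. Of these, DUSP1, DUSP4 and SPRY2 were lost in 3, 8 and 2 of 15 alternatives, with adjusted p of up to 0.16, 0.31 and 0.17. DUSP1 was lost without vehicle replicate 2 or high-dose replicate 1, DUSP4 without vehicle replicate 2 or 3 or high-dose replicate 1 or 2, and SPRY2 without vehicle replicate 1. With Banhasasim-tang, where 4.94% of genes were called higher, PHLDA1 was higher by 0.49 ± 0.10 (edgeR adjusted p = 0.0014) and DUSP5 by 0.55 ± 0.18 (adjusted p = 0.046), with 1 Banhasasim-tang library, taken to vary as replicated groups do. The DUSP5 call was lost in 8 of 12 alternatives, with adjusted p of up to 0.31, among them leaving out any 1 vehicle library, and the PHLDA1 call in 1 of 12, with the groups fitted alone (adjusted p = 0.084).

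The remaining calls against vehicle were single and small. PHLDA1 was higher by 0.22 ± 0.08 with Cimicifugae Rhizoma (10.3% of genes called higher), and DUSP5 lower by 0.47 ± 0.14 with Citri Unshius Pericarpium (5.60% called lower), where it had 3.03, 2.96 and 3.19 CPM. DUSP6 was lower by 0.20 ± 0.05 with Aconiti Lateralis Radix Preparata (7.96% called lower), at 50.8, 56.5 and 54.6 CPM against 61.4, 62.6 and 62.1 CPM in vehicle. Each of these 3 was lost when some single libraries were left out: vehicle replicate 1 or 2 for PHLDA1 and DUSP5, high-dose replicate 1 or 3 for PHLDA1, and high-dose replicate 2 for DUSP5 and 1 for DUSP6. Zizyphi Fructus (6.90% of genes called) and Yijung-tang (7.65%) gave no call in edgeR, with 0 and 2 members at an unadjusted p below 0.05 and 0 and 1 called by DESeq2. At high dose 17 of the 80 tests against vehicle were called in all, and 27 without the Zizyphi Fructus library that stood apart. Calls over all genes grew with them: averaged over the 8 extracts, 33.2% of genes were called without that library and 20.1% with it, beside 33.8% and 21.2% of the member tests. Among the calls so added were SPRY2 lower in 4 further extracts, by 0.16 to 0.33, and SPRED2 higher with Bupleuri Radix (0.21) and Cimicifugae Rhizoma (0.16).

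At medium dose 8 of 80 tests against vehicle were called. In Coptidis Rhizoma, where 11.1% of genes were called higher and 8.44% lower, PHLDA1 (0.35 ± 0.08) and SPRED1 (0.29 ± 0.07) were higher. SPRY2 was lower (-0.28 ± 0.09, edgeR adjusted p = 0.020), a call lost without vehicle replicate 1 or medium-dose replicate 3. SPRED1 had 173 and 169 CPM at medium dose of Coptidis Rhizoma and 131, 144 and 145 CPM in vehicle. Its libraries did not overlap, and its call was lost in 1 of 14 alternatives, scaling by library totals alone (adjusted p = 0.15). The 5 others lay in Zizyphi Fructus, where 27.2% of genes were called higher and 21.8% lower, and all were lost without the library that stood apart. The 6 other extracts had no call at medium dose, where the share of all genes called was 2.49% with Citri Unshius Pericarpium, 8.68% with Cimicifugae Rhizoma, 13.0% with Bupleuri Radix, 9.39% with Aconiti Lateralis Radix Preparata, 3.24% with Yijung-tang and 2.20% with Banhasasim-tang. At low dose none of the 80 tests was called by edgeR. The share of all genes called there was 6.12% with Coptidis Rhizoma, 6.04% with Zizyphi Fructus, 7.61% with Yijung-tang, 3.22% with Banhasasim-tang and 13.6% to 14.5% with the 4 others. Of the low-dose tests 15 had an unadjusted p below 0.05 in edgeR, a threshold without a share of all genes beside it, and DESeq2 called 1. Of the 15, 5 were in Coptidis Rhizoma, and no other extract had more than 3. The changes of Coptidis Rhizoma from low to high dose are measured from this low-dose group, so they can differ from those over vehicle. Without the Zizyphi Fructus library 13 of the 80 (16.2%) were called, where on average 25.1% of all genes were, against 9.96% with it.

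Extracts of the same library set were then compared directly at high dose, in 4 pairs; where doses differ this compares IC20 or top doses, not equal concentrations. At 320 µg/mL of Coptidis Rhizoma and 500 µg/mL of Zizyphi Fructus, 6 members were higher and 1 lower in Coptidis Rhizoma, where 28.0% and 28.8% of all genes were. DUSP5 had 25.5 and 23.0 CPM in Coptidis Rhizoma and 3.62 and 4.01 CPM in Zizyphi Fructus, a difference of 2.66 ± 0.15 (edgeR adjusted p = 9.3e-19). SPRY2 was the lower one, with 19.5 and 18.8 CPM in Coptidis Rhizoma and 24.0 CPM in both Zizyphi Fructus libraries (-0.32 ± 0.10, adjusted p = 0.0040), a call lost with scaling by library totals alone. Without the Zizyphi Fructus medium-dose library that stood apart SPRY4 was called lower too (-0.15, edgeR adjusted p = 0.020), where 32.2% of all genes then were. Between Bupleuri Radix at 310 µg/mL and Aconiti Lateralis Radix Preparata at 500 µg/mL, 4 members were higher in Bupleuri Radix, where 10.2% of genes were: DUSP5 (1.83 ± 0.12), PHLDA1 (0.45 ± 0.08), DUSP4 (0.21 ± 0.06) and DUSP6 (0.17 ± 0.05). DUSP6 was not called between the doses of Bupleuri Radix, and its call in this pair was lost in 6 of 16 alternatives, including leaving out Bupleuri Radix high-dose replicate 1 or 3 or Aconiti Lateralis Radix Preparata high-dose replicate 1. Without the library that stood apart DUSP1 (0.31) and SPRED2 (0.26) were called higher as well, where 17.4% of all genes then were.

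At equal concentrations of 500 µg/mL, DUSP5 was the 1 member called in each of the other 2 pairs. It was lower with Citri Unshius Pericarpium, at 3.03, 2.96 and 3.19 CPM, than with Cimicifugae Rhizoma, at 5.26, 4.61 and 5.10 CPM. The libraries did not overlap, and the difference was -0.70 ± 0.14 (edgeR adjusted p = 0.0026), where 0.730% of genes were called lower; the call was lost with scaling by library totals alone (adjusted p = 0.078). It was higher with Banhasasim-tang, at 6.21 CPM in 1 library, than with Yijung-tang, at 4.18 and 3.03 CPM. That difference was 0.79 ± 0.19 (edgeR adjusted p = 0.018), where 1.10% of genes were called higher, and it was lost when Yijung-tang high-dose replicate 2 was left out, with replicate numbers as a block within each set, or with scaling by library totals alone. Without the library that stood apart PHLDA1 was also called in both pairs (-0.14 and 0.27), and DUSP4 in the second (0.26). In that fit 1.56% of all genes were called lower in the first pair and 2.61% higher in the second.

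**Figure D4:**
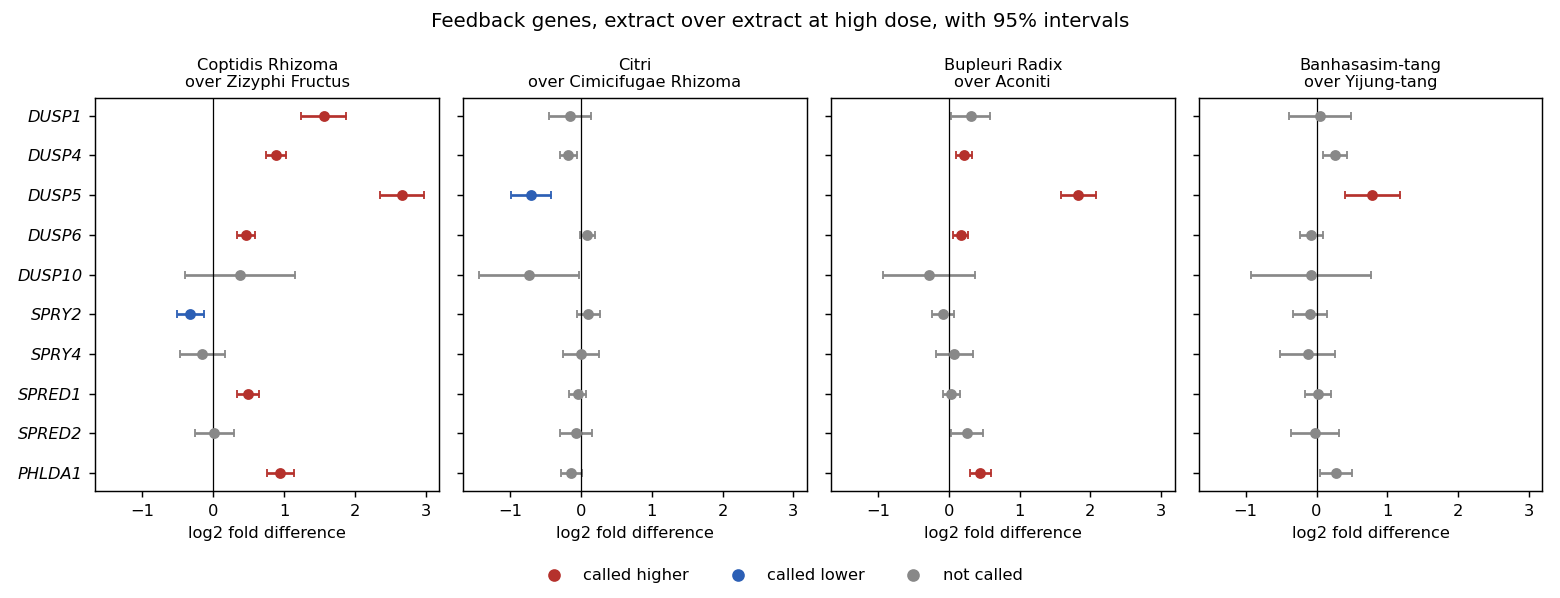
Log2 fold difference (horizontal axis) of the 10 feedback genes between the 2 extracts of a library set at high dose, first-named over second-named; points are edgeR estimates and bars 95% intervals, coloured where the adjusted p is below 0.05. DUSP5 is called in all 4 panels, at 2.66, -0.70, 1.83 and 0.79 in the order shown, while SPRY4, SPRED2 and DUSP10 are called in none.

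The difference between 2 extracts in their own change from low to high dose was tested as an interaction. Of the 40 tests 9 were called, all higher in the first-named extract of the pair. For Coptidis Rhizoma over Zizyphi Fructus 7 members were called, where 21.0% of all genes were called higher, led by DUSP5 at 2.43 ± 0.23 (edgeR adjusted p = 1.2e-11) and DUSP1 at 1.81 ± 0.24 (adjusted p = 4.5e-08). For Bupleuri Radix over Aconiti Lateralis Radix Preparata DUSP5 (1.77 ± 0.19, adjusted p = 6.7e-09) and PHLDA1 (0.44 ± 0.11, adjusted p = 0.0056) were called, where 4.59% of genes were called higher. DUSP1 (0.40 ± 0.20) and DUSP4 (0.23 ± 0.08) did not pass there. Without the library that stood apart DUSP4 and SPRED2 passed, both at 0.24, where 9.77% of all genes were then called higher. Neither of the pairs at equal concentration had a called member, with 0.200% and 0.462% of all genes called. At an unadjusted p below 0.05, for which no share of all genes is given, edgeR gave 2 members in each. DESeq2 called none.

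The genes around the feedback loop were described from lists of the pathway, beside the shares of all genes given above. These lists too were chosen with earlier results of these data known. Of 7 EGF receptor ligand genes 6 could be tested, and with Coptidis Rhizoma 5 rose and none fell between the doses (median log2 change 1.85). AREG, encoding amphiregulin, averaged 218 ± 3.6 CPM at high dose and 47.1 ± 3.2 CPM at low dose (SD, n = 2 each), a change of 2.21 ± 0.11. EREG, encoding epiregulin, averaged 476 ± 11 CPM at high dose and 114 ± 3.4 CPM at low dose (2.07 ± 0.08). HBEGF, whose shed product also binds the EGF receptor, averaged 26.4 ± 0.41 CPM at high dose and 6.55 ± 0.079 CPM at low dose (2.01 ± 0.15). BTC, encoding betacellulin, rose by 1.69 ± 0.17. With Bupleuri Radix 3 ligand genes rose, HBEGF by 0.68 ± 0.12, EREG by 0.37 ± 0.07 and TGFA by 0.25 ± 0.05. Banhasasim-tang had 1 library a dose, so its differences have no replicate check and edgeR takes their spread from the other groups. AREG had 75.9 CPM in its high-dose library and 48.2 CPM in its low-dose library (0.65 ± 0.16), and EREG 188 CPM and 114 CPM (0.72 ± 0.11), both past the threshold on that assumption.

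Receptor genes mostly moved the other way with Coptidis Rhizoma. Of 9 tested, 7 fell and 2 rose, their median change being -0.46. FGFR4, a fibroblast growth factor receptor, averaged 23.9 ± 0.010 CPM at high dose and 93.8 ± 2.0 CPM at low dose (SD, n = 2 each), and fell by 1.97 ± 0.16. FGFR3 fell by 1.34 ± 0.18, FGFR2 by 1.10 ± 0.06 and IGF1R by 0.72 ± 0.07, while MET (0.42 ± 0.06) and EGFR (0.40 ± 0.15) rose. In the RAS, RAF, MEK and ERK chain 9 of 16 genes rose and none fell, with a median of 0.23; SOS2 (1.12 ± 0.13), HRAS (0.82 ± 0.11), SOS1 (0.69 ± 0.15) and BRAF (0.63 ± 0.12) changed most. None of these 16 passed with Bupleuri Radix or with Banhasasim-tang. Of the receptor genes MET rose (0.45 ± 0.05) and ERBB3 (-0.22 ± 0.04) and ERBB2 (-0.20 ± 0.04) fell with Bupleuri Radix, and FGFR2 was at 34.9 CPM in the high-dose and 48.1 CPM in the low-dose library of Banhasasim-tang (-0.46 ± 0.08), past the threshold on the borrowed spread.

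Other ERK-responsive transcripts rose in 8 of 12 cases and fell in 2 with Coptidis Rhizoma, with a median of 0.63. EGR1, an immediate-early transcription factor, averaged 84.1 ± 0.42 CPM at high dose and 24.3 ± 2.3 CPM at low dose (1.79 ± 0.27). SPHK1 (1.05 ± 0.39), ETV5 (0.80 ± 0.08) and IER3 (0.80 ± 0.11) also rose, whereas HMGA2 fell by 0.78 ± 0.13 and MYC by 0.73 ± 0.07. With Bupleuri Radix 3 rose, FOSL1 (1.02 ± 0.22), IER3 (0.36 ± 0.09) and MYC (0.22 ± 0.05), so MYC was called in opposite directions with the 2 extracts. ETV5, an ETS factor often read beside DUSP6, changed by 0.03 ± 0.07 with Bupleuri Radix.

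The relatives of the members held both rises and falls. With Coptidis Rhizoma 6 of 13 tested relatives rose and 1 fell. ERRFI1, a direct inhibitor of the EGF receptor kinase, averaged 294 ± 9.7 CPM at high dose and 74.4 ± 1.2 CPM at low dose (1.98 ± 0.06), and SPRED3 (1.26 ± 0.27) and DUSP8 (1.19 ± 0.11), a JNK and p38 phosphatase, rose as well. SPRY1 fell by 0.33 ± 0.07 with Coptidis Rhizoma and by 0.37 ± 0.06 with Bupleuri Radix. With Bupleuri Radix PHLDA3 (0.88 ± 0.13) and ERRFI1 (0.44 ± 0.05) rose and SPRY3 fell by 0.30 ± 0.09 beside SPRY1. Of the ERK-linked transcription factors, 5 of 10 rose and 1 fell with Coptidis Rhizoma, ETV3 (0.72 ± 0.07), SRF (0.58 ± 0.06) and ETV1 (0.56 ± 0.12) among the rises and ETS2 (-0.57 ± 0.06) as the fall. In the JNK and p38 chain 6 of 14 rose, MAP2K6 (1.14 ± 0.15), MAPK13 (0.50 ± 0.10) and MAPK8 (0.49 ± 0.08) most, and 2 fell, MAPK9 (-0.63 ± 0.06) and MAP3K5 (-0.43 ± 0.08). With Bupleuri Radix no transcription factor of the list passed, while MAP2K6 fell (-1.02 ± 0.15) and MAP2K3 rose (0.28 ± 0.05). With 1 Banhasasim-tang library a dose and a spread borrowed from the other groups, ERRFI1 (97.2 CPM at high and 72.3 CPM at low dose, 0.43 ± 0.09) and SPRY1 (22.6 CPM and 30.1 CPM, -0.41 ± 0.10) passed the threshold, and nothing did among the ERK-responsive transcripts, the transcription factors and the JNK and p38 chain.

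**Figure D5:**
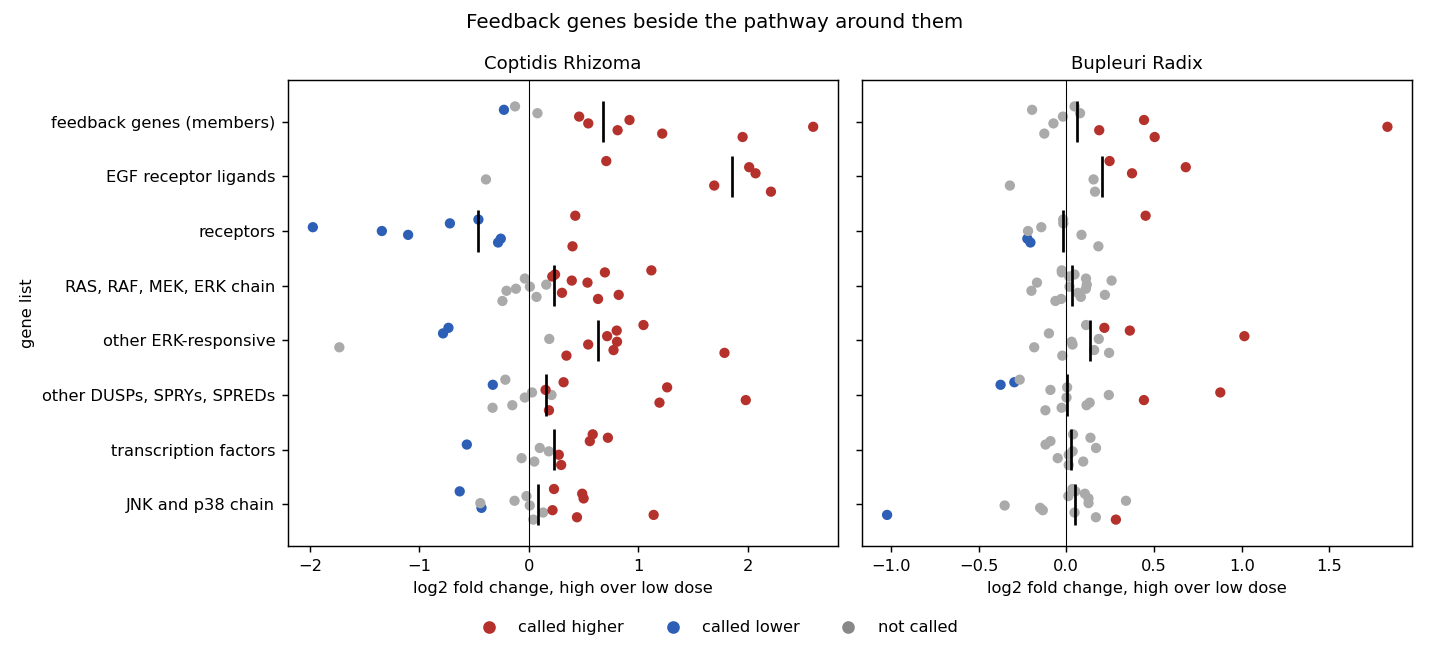
Log2 fold change at high over low dose (horizontal axes, scaled separately) of the feedback genes and of 7 pathway lists with Coptidis Rhizoma (left) and Bupleuri Radix (right); each point is a gene, coloured where the adjusted p is below 0.05, and vertical bars are list medians over tested genes. With Coptidis Rhizoma the median was 1.85 for EGF receptor ligands and -0.46 for receptors; with Bupleuri Radix all 8 medians lay between -0.02 and 0.21.

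Other features of the libraries differed between the doses of Coptidis Rhizoma. The 2 mitochondrial ribosomal RNAs took 1.60% of counts on average at high dose and 10.2% at low dose. The medium-dose libraries had 6.45% and 6.27%, and the vehicle libraries 1.15%, 1.07% and 1.11%. By this measure the low dose, the reference of the comparison, lay further from vehicle than the high dose did. With all mitochondrial genes left out 8 members were again called, and DUSP5 was again higher by 2.60. The share of all genes called in that fit is not given. Leaving these genes out changes only what enters the scaling and the fit, and the libraries remain the same. The part of the mitochondrial RNA difference in the results was therefore not tested. Among colon epithelial markers 3 of 11 rose and 6 fell, GPA33 by 5.22 ± 0.34 and CEACAM5 by 2.26 ± 0.30, and their summed level was 8870 to 8888 CPM at high dose, against 10728 to 10774 CPM at low dose. Markers of other cell types summed to 8.48 to 9.84 CPM at high dose, against 10.7 to 11.3 CPM at low dose, with 6 of 14 at 0 in both high-dose libraries and 7 in both low-dose libraries. Of the 4 that could be tested, PECAM1, an endothelial marker, fell. With Bupleuri Radix 3 colon markers rose, CEACAM5 most (1.18 ± 0.18), and 2 fell, GPA33 (-0.71 ± 0.17) and VIL1 (-0.55 ± 0.04), and no marker of other cell types passed. The part of these marker changes in the results was not tested. With Banhasasim-tang no colon marker passed, and the mitochondrial ribosomal RNAs took 10.2% of counts at high dose and 1.11% at low dose. Their part in the DUSP5 difference was not tested.

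Across the 25 group means the members fell into partly separate patterns, given here as descriptions of points that share libraries, sets and vehicle. The log2 CPM of DUSP1 and DUSP5 correlated with Pearson's r of 0.87 over 25 groups and 0.74 over the 22 groups without Coptidis Rhizoma. DUSP4 and DUSP5 had 0.85 and 0.61 over the same groups, while DUSP1 and DUSP6 had 0.67 and -0.35, of opposite sign once Coptidis Rhizoma was left out. SPRY2 ran against PHLDA1, at -0.79 over 25 groups and -0.81 over 22, and at -0.75 when Zizyphi Fructus medium dose was left out too. SPRY4 and SPRED2 had 0.82 and 0.91, and 0.52 when Zizyphi Fructus medium dose was left out too.

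Over the 25 groups the gene most like DUSP5 was SRXN1, encoding sulfiredoxin (r = 0.97), followed by GDF15 and TSC22D1 (both 0.96); over the 22 groups without Coptidis Rhizoma it was EMP1 (0.95). Over the 25 groups IL6R (0.97), MOSPD1 (0.96) and CDKN1A (0.95) were most like DUSP1, and PLEKHM2 (0.97), DDIT3 (0.96) and HERPUD1 (0.96) most like DUSP4. Over the 22 groups other genes led: NEU1 (0.87), CTSA (0.86) and KDSR (0.85) for DUSP1, and RARA (0.78), PLEKHM2 (0.77) and RNF24 (0.76) for DUSP4. PHLDA1 was followed most closely by SMAD3, at 0.98 over 25 groups and 0.95 over 22, and over the 22 also by FAM241A (0.93) and HBEGF (0.92). Both sets of groups include Zizyphi Fructus medium dose, the second highest group of PHLDA1 at 169 CPM. Its 2 libraries had 128 CPM and, in the one that stood apart, 209 CPM. For the genes most like a member, no r without this group is given. SPRED1 was most like PRKAR1A (0.95) and DUSP6 most like METTL16 (0.86) over 25 groups, and like ARFGEF2 (0.87) and EXOC4 (0.78) over 22. SPRY4 and SPRED2 were most like NUP214 (0.96) and ASAP1 (0.94) over 25 groups that include the library that stood apart, and SPRY2 most like CCL15 (0.86).

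Order and spread of the levels differed between members. DUSP1 spanned 3.86-fold between its highest and lowest group mean, the high and the low dose of Coptidis Rhizoma. DUSP5 averaged 24.2 CPM at the high dose of Coptidis Rhizoma, and was lowest in Zizyphi Fructus medium dose, which holds the library that stood apart (1.73 CPM, beside 3.14 CPM in its replicate), and next lowest at the high dose of Citri Unshius Pericarpium, at 3.06 CPM. SPRY2 was also lowest in that Zizyphi Fructus group (15.2 and 22.9 CPM), next lowest at the high dose of Coptidis Rhizoma, at 19.2 CPM, and highest in vehicle, at 26.1 CPM. PHLDA1 was highest at the high dose of Coptidis Rhizoma, at 242.7 CPM, and lowest in vehicle, at 118.8 CPM. The median coefficient of variation within groups was 9.17% for DUSP5, 9.12% for DUSP1, 2.26% for PHLDA1 and SPRED2, and 23.5% for DUSP10. Below its 3 highest groups DUSP5 averaged 2.43 to 4.99 CPM in the 22 others. The DUSP5 pseudogene DUSP5P1 held 0 to 9 counts a library and the antisense gene SPRY4-AS1 4 to 32 counts; the sources used here do not give the strand setting of the counting, so reads of SPRY4 and SPRY4-AS1 may not be fully told apart.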

How the data were processed

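RNA of HT29 cells was sequenced as directional mRNA libraries with paired reads of 100 bp, per the labels' protocols. Values in the deposited table are RSEM's expected counts, and 210 of its 270 value columns were not matched to the samples here and were not used. Per the submitters' processing notes the tools were RSEM 1.3.3, STAR 2.7.3a, FastQC 0.11.9 and Trim Galore 0.6.5, and the build was GRCh38; settings and annotation are not given in the sources used here. Gene coordinates come from GENCODE 29, and gene symbols from a separate reference of gene names.

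The deposited expected counts of 60 libraries were rounded to whole numbers. Genes reaching 0.5 CPM in 3 or more libraries were kept, scaled by TMM and fitted with a mean for each of 25 groups in edgeR 4.0.16 (R 4.3.3), with 35 residual degrees of freedom. Adjusted p-values are Benjamini-Hochberg over all 16022 genes of a comparison. Intervals cover 95%. edgeR's test was also run on counts simulated with the spread that the fit itself had estimated. That simulation held no library that stands apart and no shared replicate effect. It therefore does not show how the test behaves on these libraries. DESeq2 1.42.0, other scalings, filters, replicate blocks and leaving out each library were alternatives.

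The lists cover EGF receptor ligands, receptors, the RAS to ERK chain, the JNK and p38 chain, other ERK-responsive transcripts, relatives of the members, ERK-linked transcription factors, colon markers, markers of other cell types and mitochondrial ribosomal RNAs. The 10 members and the gene lists were chosen with earlier results of these data known. All members are named; of each pathway or marker list the rule takes up to 4 called genes with the largest change per extract, and per member the genes most like it over the groups, of which one result is not reported here. MET, EGFR, HMGA2, MYC, MAP3K5 and ETV5 with Bupleuri Radix were named after their values were seen.

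Replicate numbers were checked for pairing between high and low dose: same-numbered libraries deviated together in Bupleuri Radix (r = 0.34 to 0.60) and Aconiti Lateralis Radix Preparata (0.17 to 0.60), every pair over 0.1, and not in every pair of the other extracts.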

Additional observations from a re-analysis of the deposited data

Results flagged for a closer look

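These 9 results were singled out because the change from low to high dose differed between the 2 extracts of a library set by the interaction test in edgeR. Differences are on the log2 scale, first-named extract minus second-named, and in both pairs the high doses were not equal concentrations. For Coptidis Rhizoma minus Zizyphi Fructus the difference was 2.43 for DUSP5, 2.02 for DUSP10, 1.81 for DUSP1, 0.90 for PHLDA1, 0.68 for DUSP4, 0.52 for DUSP6 and 0.45 for SPRED1. Standard errors lay between 0.09 for DUSP6 and 0.56 for DUSP10. The DUSP10 difference rests on 5 to 27 counts a library and was lost without Zizyphi Fructus low-dose replicate 3 (highest edgeR adjusted p over 18 alternatives 0.067); the 6 others held in all 18. For Bupleuri Radix minus Aconiti Lateralis Radix Preparata the difference was 1.77 for DUSP5 and 0.44 for PHLDA1, and both held in all 22 alternatives. SPRY2, SPRY4 and SPRED2 were called in neither of these pairs in the fit of all 60 libraries. Without the Zizyphi Fructus library that stood apart SPRED2 was called for Bupleuri Radix minus Aconiti Lateralis Radix Preparata (0.24, edgeR adjusted p = 0.0038). There 9.77% of all genes were then called higher.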

How the results depend on the processing

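Values here are numbers of members called in edgeR. The share of all genes called is given only for the fit of all 60 libraries and for that without Zizyphi Fructus medium dose replicate 3. For the other settings, here and in the paragraphs below, it is not given. Their counts of members therefore have no background beside them. With Coptidis Rhizoma the 8 calls between high and low dose numbered 6 to 8 when single libraries were left out. With Bupleuri Radix 4 became 2 with library totals alone, under which the median of all genes was -0.06, and 2 to 5 when single libraries were left out (2 without high-dose replicate 1). Without the library of Zizyphi Fructus medium dose replicate 3 the counts were 2 for Aconiti Lateralis Radix Preparata and 2 for Banhasasim-tang (both 0 with it), 1 for medium over low dose (5 with it), and 27, 14 and 13 for high, medium and low dose over vehicle (17, 8 and 0 with it). Leaving out single libraries gave 1 to 8, 12 to 27, 7 to 14 and 0 to 13 calls in these 4 families (8 without Zizyphi Fructus medium dose replicate 2 and 1 at low dose over vehicle without vehicle replicate 3). With the compared groups alone there were 2 calls each for Aconiti Lateralis Radix Preparata, for medium over low dose and for medium dose over vehicle; Banhasasim-tang high over low dose could not be fitted alone. Low dose over vehicle gave 1 call with DESeq2 or its size factors and 5 with library totals alone. Citri Unshius Pericarpium over Cimicifugae Rhizoma, with 1 call, gave 0 with library totals alone and 1 to 2 when single libraries were left out. Banhasasim-tang over Yijung-tang, with 1 call, gave 0 with library totals alone, 3 with the groups alone and 0 to 3 when single libraries were left out. Calls over all genes also differed without Zizyphi Fructus medium dose replicate 3. Between high and low dose 6.20% of genes were then called with Aconiti Lateralis Radix Preparata (2.71% with it). With Banhasasim-tang 3.84% were (1.73% with it). At medium dose over vehicle 17.5% of the member tests were then called, beside 20.3% of all genes on average. The cause of these moves was not tested.

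Zizyphi Fructus medium over low dose changed sign with library totals alone for DUSP4 (-0.19), DUSP6 (-0.28) and PHLDA1 (-0.020), and over vehicle for DUSP4 (-0.32) and DUSP6 (-0.31). Leaving out medium-dose replicate 3 or 2 gave -0.074 to 1.23 for SPRY4 and -0.053 to 1.08 for SPRED2 over low dose, and -0.080 to 1.22 for SPRY4 over vehicle; the lower values, of the other sign, are those without replicate 3. With library totals alone the median of all genes moved to 0.11 in Coptidis Rhizoma and to -0.11 in Banhasasim-tang, high over low dose.

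With replicate number as a block, the 4 Bupleuri Radix and 8 Coptidis Rhizoma calls between high and low dose numbered 4 and 8, the same counts as with a block within each set; Banhasasim-tang over Yijung-tang gave 0 calls with the block within sets, an alternative added after seeing the data. With the numbers of the Coptidis Rhizoma low-dose libraries exchanged, 8 were again called. The exchange was tried because same-numbered high- and low-dose libraries correlated at -0.12. Same-numbered libraries correlated at 0.19 between medium and low dose and at 0.041 between high and medium dose. These values do not settle which libraries pair. Depth limits DUSP10 most, since 3 counts correspond to 0.082 to 0.17 CPM.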
